A study of Mus musculus with 6 samples.

Results

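The genes described are those of the plasminogen activator system in a mouse osteoblast line: the activator genes Plau and Plat, the receptor gene Plaur, and the serpin genes Serpine2, Serpinb2 and Serpinf1. They were chosen by gene name, and all 6 were found among the 30071 genes of the deposited table. Poly(A)-selected RNA came from a pre-osteoblast line of the mouse, MC3T3-E1, grown on polyetheretherketone (PEEK), an implant polymer, with a nano- and microstructured surface. In 3 libraries the cells were on this surface alone, and in 3 the culture also received supernatant of RAW264.7 cells, a mouse macrophage line. Both groups shared the structured surface, so no value here compares surfaces. The sources used here do not give the time in culture, the dose of supernatant or the surface on which the RAW264.7 cells grew.

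Plasminogen is an inactive circulating protease that is cut to plasmin, which digests fibrin and other matrix proteins and releases growth factors from the matrix. Urokinase (from Plau) acts mostly at the cell surface, held by its lipid-anchored receptor (from Plaur), while tissue-type activator (from Plat) acts mostly on fibrin. Serpins are suicide inhibitors that trap such proteases. Protease nexin-1 (from Serpine2) blocks thrombin and both activators, and plasminogen activator inhibitor 2 (from Serpinb2) blocks urokinase. Pigment epithelium-derived factor (from Serpinf1) has the serpin fold but inhibits no protease. It is secreted by osteoblasts, restrains blood vessel growth, and its loss in humans causes a brittle bone disease.

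The sequences just upstream of the start sites are shown for Serpinf1, Plaur, Serpinb2 and Serpine2, the genes with an entry in the RefSeq promoter table. Each run is the 250 bases before a RefSeq start site (GRCm38.p6), 5′ to 3′ on the gene's strand. The deposited gene coordinates given further below come without a stated build. They do not line up with these stretches, so positions should not be compared between them. Of the 6 genes 4 matched the RefSeq promoter table, and Plau and Plat did not. Capitals mark matches, on either strand, to the AP-1 motif TGANTCA, the GC box GGGCGG and the TATA motif TATAAA.
Serpinf1, chr11:75422624-75422873, minus strand: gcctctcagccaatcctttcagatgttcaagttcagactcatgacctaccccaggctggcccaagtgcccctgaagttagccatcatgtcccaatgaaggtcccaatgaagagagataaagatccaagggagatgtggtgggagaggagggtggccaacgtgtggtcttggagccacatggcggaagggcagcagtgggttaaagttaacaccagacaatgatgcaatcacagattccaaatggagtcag
Plaur, chr7:24462233-24462482, plus strand: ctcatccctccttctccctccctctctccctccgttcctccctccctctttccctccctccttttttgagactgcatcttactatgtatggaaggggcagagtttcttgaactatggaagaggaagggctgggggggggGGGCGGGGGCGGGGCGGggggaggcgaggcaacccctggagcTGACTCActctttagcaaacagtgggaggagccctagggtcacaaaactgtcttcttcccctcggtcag
Serpinb2, chr1:107511173-107511422, plus strand: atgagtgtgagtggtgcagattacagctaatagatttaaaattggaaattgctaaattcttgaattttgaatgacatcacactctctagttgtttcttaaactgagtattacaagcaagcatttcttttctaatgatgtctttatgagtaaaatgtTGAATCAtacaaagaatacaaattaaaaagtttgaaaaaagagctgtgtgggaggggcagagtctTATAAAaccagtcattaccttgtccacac
Serpine2, chr1:79858666-79858915, minus strand: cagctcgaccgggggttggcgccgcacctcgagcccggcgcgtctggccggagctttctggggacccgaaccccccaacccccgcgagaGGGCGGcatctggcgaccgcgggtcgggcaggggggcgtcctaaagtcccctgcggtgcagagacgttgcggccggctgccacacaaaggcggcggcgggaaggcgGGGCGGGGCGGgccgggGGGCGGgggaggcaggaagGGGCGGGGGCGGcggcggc

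The Serpinf1 stretch held none of these 3 motifs and 2 CpG dinucleotides, and 51.6% of its bases were G or C. The Plaur stretch held 1 AP-1 match, which began 69 bases before the start site, 3 GC boxes and 6 CpG. The Serpinb2 stretch held 1 AP-1 match and 1 TATA match, beginning 94 and 29 bases before the start site, and 0 CpG. Serpinb2 has a second RefSeq start site, whose stretch overlaps this one and holds the same 2 matches. The Serpine2 stretch held 6 GC boxes, 34 CpG and 78.8% G or C. GC boxes overlapped one another in Plaur and Serpine2, and no motif overlapped a different one. Over all 32851 stretches in the table, 6.75% held the AP-1 motif, 32.7% the GC box and 12.4% the TATA motif, and the median stretch held 6 CpG. A match describes letters and shows no bound factor.

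The libraries held 74927500 to 82803173 counts each. Within the supernatant group replicate 1 stood apart: averaged over genes, the chi-square of its counts against those of replicates 2 and 3 was 102 and 112, and it was 35.2 between those replicates. On PEEK alone, replicate 1 differed from replicates 2 and 3 by 60.5 and 56.7, against 25.6 between them. Replicate 1 with supernatant differed from PEEK-alone replicates 1, 2 and 3 by 70.4, 78.6 and 93.8, less than from its own group. PEEK-alone replicate 1 differed from supernatant replicates 2 and 3 by 63.4 and 57.8. With replicate 1 of each group included, the libraries thus did not separate by group on this measure. Replicates 2 and 3 without supernatant differed from replicates 2 and 3 with it by 69.4 to 102. Of 11 listed osteoblast markers, 10 were in the deposited table. FPKM is fragments scaled by gene length and library size, the authors' level per length. Of these markers 7 had a mean of at least 1 FPKM, among them Runx2, Alpl, Spp1 and Sparc. Col1a2 had a mean of 511 FPKM and Col1a1 2.84 FPKM. Ibsp and Dmp1 had means of 0.499 and 0.332 FPKM, and Bglap, the osteocalcin gene, had 21 counts over all 6 libraries. The macrophage markers summed to 5.85 to 8.04 FPKM without and 4.79 to 7.16 FPKM with supernatant, almost all from Cd14 and Cd68, and 2 of 9 had a mean of at least 1 FPKM. Of 14 macrophage markers listed, these 9 were in the deposited table. Ptprc, C1qc, Mrc1 and Spi1 had 4, 0, 25 and 37 counts in all 6 libraries together. Fcgr1, Csf1r and Lyz2 had 156, 182 and 231. In each group the titles call replicates 2 and 3 biological replicates and give replicate 1 no such word. No label says that each library was a culture of its own, and p-values then reflect library-to-library spread, which may be in part technical.

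Among the 6 genes the order of the levels was Serpinf1, Plau, Plaur, Plat, Serpinb2 and Serpine2. Serpinf1 was at 224 to 299 FPKM over the 6 libraries, higher than 99.4% of the 18177 genes with enough counts to be tested. Plau was at 19.7 to 25.4 FPKM and Plaur at 7.72 to 11.5 FPKM, with no overlap between them or with Serpinf1. Plat was at 4.27 to 7.39 FPKM, just under the lowest Plaur value. The neighbours Plaur and Plat came close in replicate 2 of PEEK alone, where they were at 7.72 and 6.95 FPKM. Serpinb2 was at 0 to 0.0358 FPKM and Serpine2 at 0 to 0.000832 FPKM. The urokinase gene, its receptor and the tissue-type activator gene were thus all present, and of the 3 serpin genes only the one for the non-inhibitory serpin was above 0.0358 FPKM. Whether values near 0 came from scarce transcript or from how reads were counted was not tested.

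**Figure D1:**
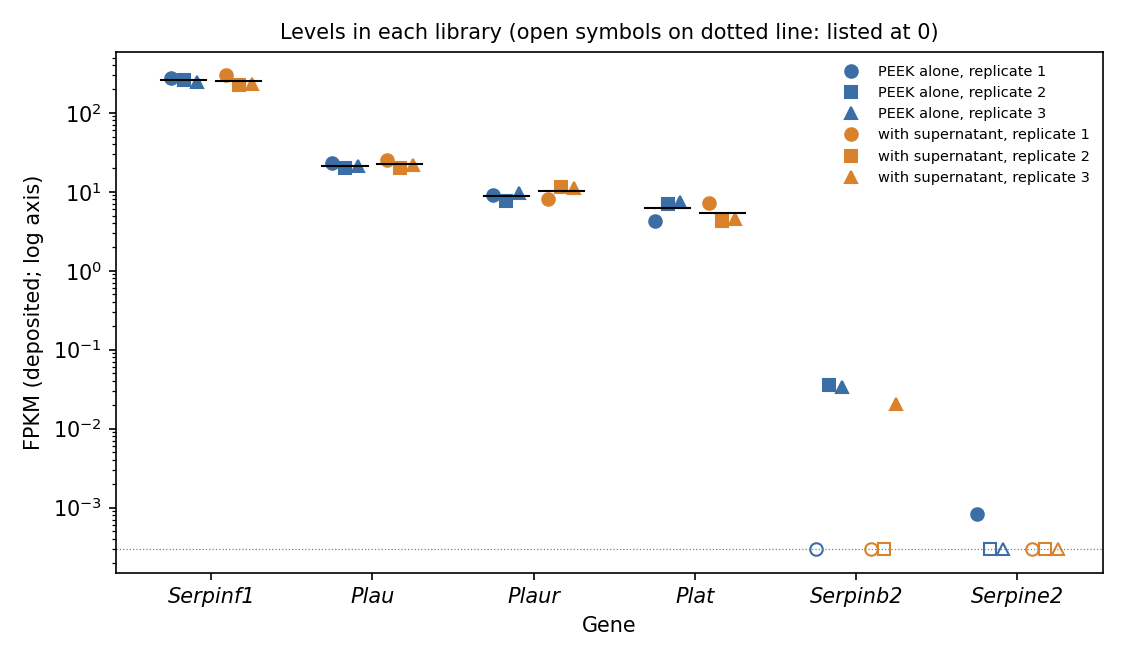
FPKM of the 6 genes in each library on a log axis, with colours for the groups, symbols for replicates and bars for group means. Serpinf1 lies near 256 FPKM, Plau, Plaur and Plat lie between 4.27 and 25.4 FPKM, and the open symbols of Serpinb2 and Serpine2 on the dotted line stand for libraries where the gene is listed at 0.

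The comparison asked whether the transcripts of this system differed when macrophage supernatant was present. No difference passed the test: of the 4 genes with enough counts (Plau, Plat, Plaur and Serpinf1), edgeR's quasi-likelihood test called 0 higher and 0 lower at a Benjamini-Hochberg adjusted p under 0.05. Over all genes tested it called 0.0165%, so with edgeR few genes of any kind passed. None of the 4 had an unadjusted p under 0.05, against 8.95% of all genes. DESeq2 called 0 of the 4, against 2.05% of all genes, and limma on log2(FPKM + 1) called 0, against 0.0249%. In CPM (counts scaled to the normalized library size), in none of the 4 did the libraries with supernatant lie all above those without, as in 7.83% of genes, or all below, as in 7.36% (15.2% in all). In such bulk RNA, fewer cells with a transcript and less of it per cell cannot be told apart. Log2 fold changes below are with supernatant minus PEEK alone.

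Plau (ENSMUSG00000021822, chromosome 14, 20886728 to 20893453, plus strand, as the deposited table gives it) had counts of 4376, 3978 and 4065 in PEEK-alone replicates 1, 2 and 3. With supernatant it had 4779, 3681 and 4352 counts. As FPKM these were 23.3, 19.7 and 20.98 without and 25.4, 20.2 and 22.1 with supernatant. Replicate 1 was the highest of each group, and the groups overlapped. The means were 21.3 ± 1.83 and 22.6 ± 2.62 FPKM (SD, n = 3 each). The log2 fold change was 0.07 (SE 0.10, edgeR adjusted p = 0.883), with a 95% interval of −0.16 to 0.30. That interval spans a 0.894-fold to a 1.23-fold level, so changes of the urokinase gene larger than this lay outside it.

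Plaur (ENSMUSG00000046223, chromosome 7, 24161909 to 24175393, plus strand), the gene of the urokinase receptor, had 1867, 1727 and 2048 counts without supernatant and 1684, 2317 and 2427 counts with supernatant. The FPKM values were 8.99, 7.72 and 9.55 without and 8.08, 11.5 and 11.2 with supernatant. Replicates 2 and 3 with supernatant were the 2 highest of the 6 libraries, and replicate 1 with supernatant lay within the range of PEEK alone. The means were 8.75 ± 0.934 and 10.2 ± 1.88 FPKM (n = 3 each), with a log2 fold change of 0.22 (SE 0.16, edgeR adjusted p = 0.739, 95% interval −0.15 to 0.58). Without replicate 1 with supernatant the log2 fold change was 0.38 (SE 0.11, edgeR unadjusted p = 0.0101, adjusted p = 0.144), and it was higher in both remaining libraries. Plaur was then the 1 gene of the 4 with an unadjusted p under 0.05, in a fit where 17.3% of all genes had one and 1.06% passed the adjusted threshold. Leaving out the other libraries in turn gave 0.12 to 0.29.

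Plat (ENSMUSG00000031538, chromosome 8, 23247743 to 23272860, plus strand), the gene of the fibrin-dependent activator, varied most among the 4. It had 2117, 3704 and 3778 counts without supernatant and 3597, 2076 and 2325 counts with supernatant. The FPKM values were 4.27, 6.95 and 7.39 without and 7.25, 4.32 and 4.48 with supernatant. In each group replicate 1 lay apart from replicates 2 and 3, on the low side without and on the high side with supernatant. The log2 CPM ranged over 0.82 within PEEK alone and 0.70 within the supernatant group, wider than the difference between the means. Those means were 6.21 ± 1.69 and 5.35 ± 1.65 FPKM (n = 3 each), and the log2 fold change was −0.24 (SE 0.25, edgeR adjusted p = 0.829, 95% interval −0.80 to 0.33). Without replicate 1 of PEEK alone it was −0.45 and without replicate 1 with supernatant −0.49 (edgeR adjusted p = 0.479 and 0.310). It was −0.09 when replicate 3 of PEEK alone was left out, and −0.11 or −0.13 when replicate 2 or 3 with supernatant was, so the size of this difference rested on single libraries.

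Serpinf1 (ENSMUSG00000000753, chromosome 11, 75300595 to 75313527, minus strand) had 51122, 52495 and 47016 counts without supernatant and 56117, 40713 and 45970 counts with supernatant. The FPKM values were 273, 261 and 244 without and 299, 224 and 235 with supernatant. The supernatant group held both the highest library, replicate 1, and the 2 lowest, replicates 2 and 3. The means were 259 ± 14.9 and 253 ± 40.6 FPKM (n = 3 each). The log2 fold change was −0.05 (SE 0.11, edgeR adjusted p = 0.922), with a 95% interval of −0.31 to 0.20, or a 0.808-fold to 1.15-fold level. Without replicate 1 with supernatant the log2 fold change was −0.16 (SE 0.07, edgeR adjusted p = 0.292). Without replicate 2 with supernatant its sign turned, at 0.02 (adjusted p = 0.996).

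Serpinb2 (ENSMUSG00000062345, chromosome 1, 107439153 to 107460265, plus strand) had 0, 8 and 7 counts without supernatant and 0, 0 and 4 counts with supernatant. Replicate 1 of both groups had none, and the groups overlapped. Serpine2 (ENSMUSG00000026249, chromosome 1, 79771914 to 79836413, minus strand) had 1, 0 and 0 counts without supernatant and 0, 0 and 0 counts with supernatant. Neither gene had enough counts to be tested. A count of 0 allows up to 3 counts, or 0.0366 to 0.0405 CPM per library, by counting error only. For Serpine2 all 6 libraries lay at or under that limit, so a difference was not detectable at this depth. For Serpinb2, 3 libraries lay above it, 2 of them without supernatant, and no difference was tested. The Serpine2 stretch shown above held 34 CpG, more than 96.5% of the stretches, while the Serpinb2 stretch shown held 0. The stretch of Plaur had more CpG than 49.65% of them and that of Serpinf1 more than 18.8%. A relation of CpG to level was not tested.

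**Figure D2:**
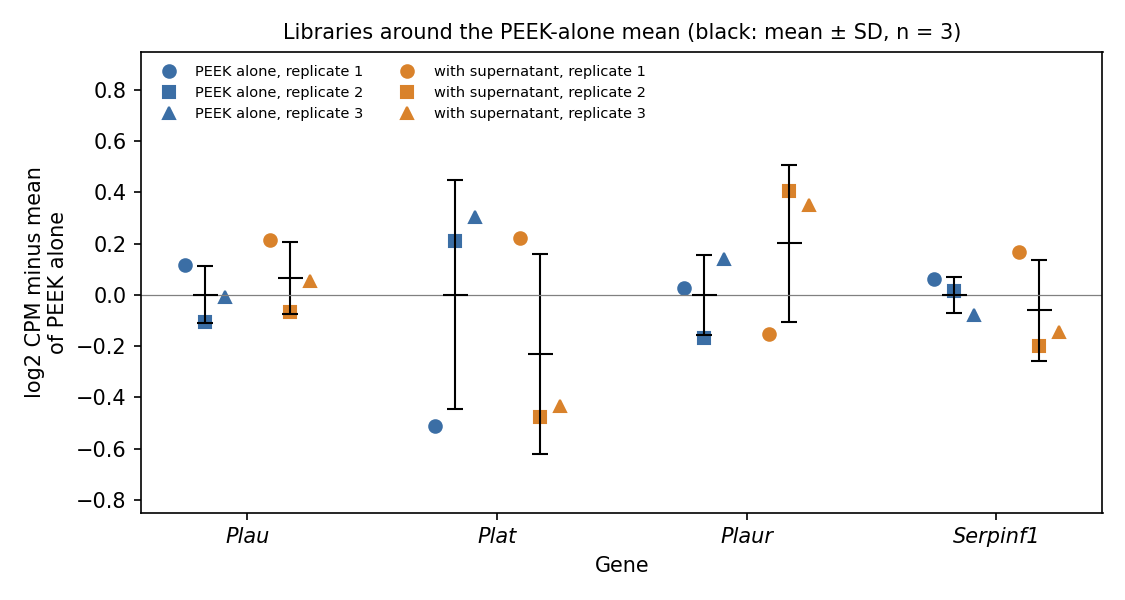
Log2 CPM of each library minus the mean of PEEK alone for the 4 tested genes, with the group mean ± SD (n = 3) in black. Plat spreads over 0.82 within PEEK alone, and replicate 1 with supernatant (circle) lies apart from replicates 2 and 3 for Plat, Plaur and Serpinf1.

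The balance between pairs of these transcripts was compared as ratios of FPKM. The ratio of Plau to Plat was 5.45, 2.83 and 2.84 in PEEK-alone replicates 1, 2 and 3 and 3.50, 4.68 and 4.94 with supernatant, so urokinase transcripts exceeded those of the tissue-type activator in all 6 libraries. The ratio of Plau to Plaur was 2.59, 2.55 and 2.198 without and 3.14, 1.76 and 1.98 with supernatant. In neither ratio were the groups separate. Two-sided exact permutation tests gave p = 0.400 and 0.600 (0.600 each when adjusted over the 2 ratios), and with 3 against 3 libraries such a test cannot go below 0.1.

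Genes around this system were described from 6 lists, with 61 tested genes in all. None passed with edgeR, 8 had an unadjusted p under 0.05 (13.1%, against 8.95% of all genes), and in CPM 3 lay all above and 4 all below, where 7.83% and 7.36% of all genes did. DESeq2 called 1 of the 61 lower, Mmp3, where it called 2.05% of all genes. The median log2 fold change over the 61 genes was −0.10, against −0.01 over all genes tested.

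Of 36 other serpin genes, 23 were tested, with 0 called in either direction and a median log2 fold change of −0.02. Most were scarce: 25 of the 36 had a mean under 1 FPKM. The highest was Serpinh1, the collagen chaperone, at 219 to 252 FPKM, a range close to that of Serpinf1. Serpinb8, an intracellular serpin gene, was at 2.64 ± 0.256 and 1.75 ± 0.432 FPKM (log2 fold change −0.61, edgeR adjusted p = 0.434), with all 3 supernatant libraries lower. Serpinb6b was higher in all 3 but scarce, at 0.0997 ± 0.036 and 0.251 ± 0.0769 FPKM (edgeR adjusted p = 0.479). Serpina3f was at 0.409, 7.29 and 5.11 FPKM without and 1.47, 1.23 and 0.759 FPKM with supernatant, so the groups overlapped (log2 fold change −1.91, edgeR adjusted p = 0.532). Several clade a and b serpin genes of the mouse have closely related neighbours, so their counts are uncertain.

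Of the genes that bind plasminogen at the cell surface or take up activators with their inhibitors, 8 were tested and 0 called (median log2 fold change −0.07). S100a10, which forms a plasminogen-binding complex with annexin A2, was at 151, 142 and 181 FPKM without and 99.6, 115 and 133 FPKM with supernatant. All 3 supernatant libraries were lower, with a log2 fold change of −0.46 (SE 0.14, edgeR unadjusted p = 0.00892, adjusted p = 0.384). Its partner gene Anxa2 was at 168 to 235 FPKM over the 6 libraries (log2 fold change −0.18, edgeR adjusted p = 0.706). Plgrkt, a plasminogen receptor gene, was at 9.79 ± 0.922 and 8.33 ± 0.723 FPKM, and the groups overlapped in FPKM, while in CPM the highest supernatant library (34.97) lay just under the lowest of PEEK alone (35.06) (log2 fold change −0.25, edgeR adjusted p = 0.531). Vldlr, an uptake receptor gene for activator and inhibitor complexes, was higher in all 3, at 6.28 ± 0.507 and 7.57 ± 0.394 FPKM (log2 fold change 0.26, edgeR adjusted p = 0.472). The plasminogen gene Plg was listed but was not found by that name in the deposited table, so it could not be analysed.

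In the tissue factor and thrombin list 6 genes were tested and 0 called (median log2 fold change −0.06). Procr, the receptor of protein C, was at 2.35, 2.31 and 2.43 FPKM without and 3.05, 3.71 and 3.49 FPKM with supernatant, higher in all 3. Its log2 fold change was 0.51 (SE 0.15, edgeR unadjusted p = 0.00968, adjusted p = 0.388). F3, the tissue factor gene, was at 6.09 ± 0.619 and 5.17 ± 2.19 FPKM, and without replicate 1 with supernatant its log2 fold change went from −0.26 to −0.62 (edgeR adjusted p = 0.818 and 0.0974). F13a1, the gene of the fibrin cross-linking factor, was at most 0.106 FPKM in all 6 libraries.

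Of genes whose products plasmin or its activators are known to cut, 12 were tested and 0 called by edgeR (median log2 fold change −0.11). Mmp3, a stromelysin that plasmin activates, had 52, 182 and 182 counts without supernatant and 19, 27 and 39 counts with supernatant, lower in all 3. Its log2 fold change was −2.25 (SE 0.51, edgeR adjusted p = 0.266), and DESeq2 called it (adjusted p = 0.00529). Tgfb3 was at 16.2 ± 2.65 and 19.6 ± 2.21 FPKM and Ltbp1, which anchors latent TGF-beta in the matrix, at 75.9 ± 4.56 and 70.8 ± 6.27 FPKM (edgeR adjusted p = 0.597 and 0.794). Among receptors and binding partners of pigment epithelium-derived factor 4 were tested and 0 called. Plxdc1 was at most 0.119 FPKM, Pnpla2 at 6.10 ± 0.896 and 5.62 ± 1.39 FPKM, and the laminin-binding ribosomal protein gene Rpsa at 807 ± 55.1 and 797 ± 169 FPKM. Of other secreted or membrane serine proteases 8 were tested and 0 called (median log2 fold change −0.30). Htra1 was at 8.37 ± 1.37 and 10.1 ± 1.12 FPKM, C1ra, a complement protease gene, at 73.3 ± 22.3 and 56.2 ± 13.9 FPKM, and Htra3 at 0.356 ± 0.0729 and 0.508 ± 0.232 FPKM.

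**Figure D3:**
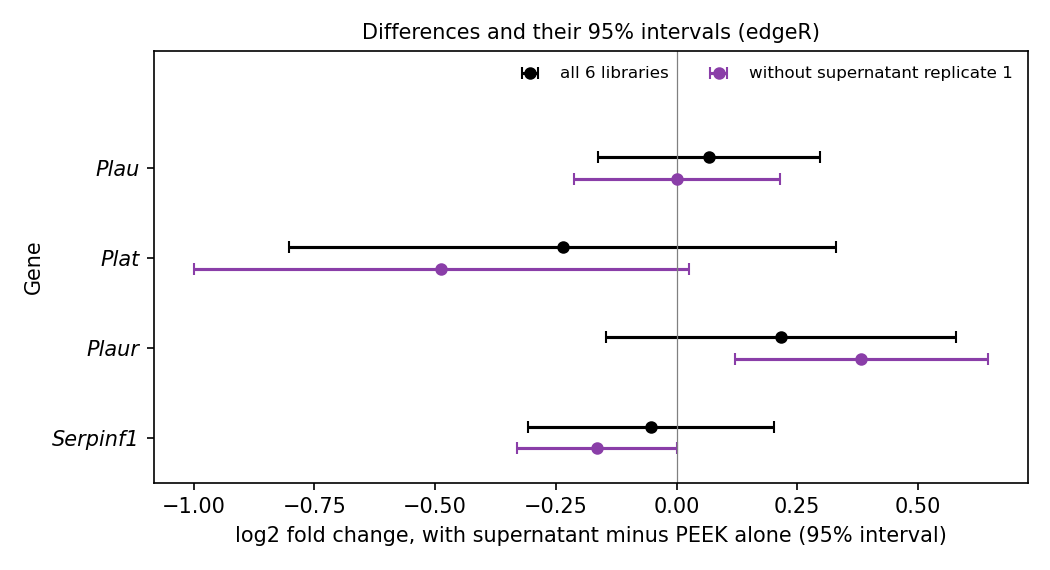
Log2 fold changes of the 4 tested genes with 95% intervals (edgeR), from all 6 libraries in black and without replicate 1 with supernatant in purple. With all libraries the intervals of the 4 genes include 0, and without that library Plaur moves from 0.22 to 0.38 and Plat from −0.24 to −0.49. The purple interval of Plaur, 0.12 to 0.64, excludes 0 (edgeR adjusted p = 0.144), and those of Plau, Plat and Serpinf1 include it.

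**Figure D4:**
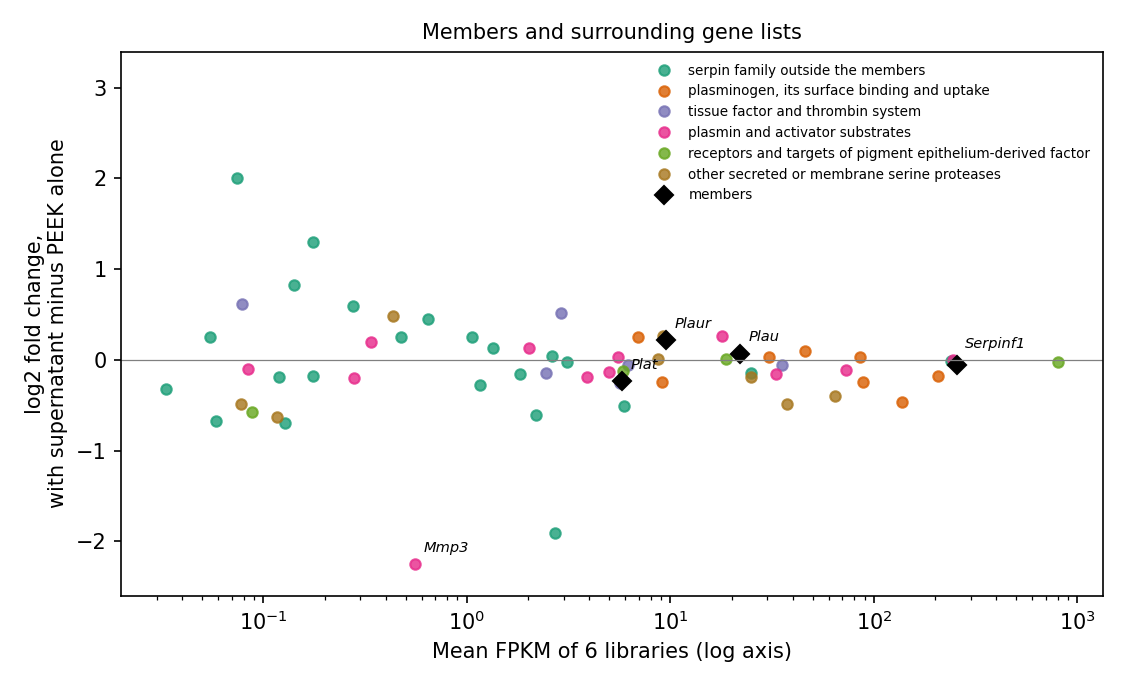
Log2 fold change against mean FPKM (log axis) for the 4 tested genes (diamonds) and the 61 tested genes of the 6 surrounding lists (circles). The 4 genes lie between −0.24 and 0.22, and Mmp3 at −2.25 is the lowest point.

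The genes most like each of the 4 in pattern over the 6 libraries were sought by Pearson's r of log2 CPM. The search covered 7209 other tested genes with a mean of at least 5 FPKM. Predicted (Gm) and Rik clone genes, pseudogenes, genes named Rpl or Rps and genes named by a database code were left out. The r values below are the highest of 7209 over the same 6 libraries, so r is a description with no test. For Plau they were Ip6k2, Cdc7 and Wdr83 (r = 0.983, 0.976 and 0.974), each highest in replicate 1 with supernatant. For Plat they were Smtn, Rnf121 and Ing4 (r = 0.996, 0.989 and 0.984), which were lower in replicate 1 of PEEK alone and in replicates 2 and 3 with supernatant than in the other libraries. For Plaur they were Rbm19, Uso1 and Grwd1 (r = 0.990, 0.989 and 0.989), each highest in replicates 2 and 3 with supernatant. For Serpinf1 they were Ssbp3, Stx16 and Mapk8ip3 (r = 0.998, 0.990 and 0.988), each lowest in those 2 libraries.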

How the data were processed

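RNA of 6 libraries was measured, 3 per group by the treatment label, numbered as in the library names. Each gene and library has a deposited raw count and a deposited FPKM, per the file headers. The submitters' processing notes name HISAT2 2.2.1 and Cutadapt 1.9. The sources used here do not give genome build, annotation, counting tool, strand setting or the handling of molecular identifiers and multiply matching reads, so counts of near-identical genes could be split or lost.

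The deposited counts (74927500 to 82803173 per library) were tested with edgeR 4.0.16 in R 4.3.3 (TMM, filterByExpr with minimum count 10 and total 15, 18177 genes, quasi-likelihood, group as the only term, Benjamini-Hochberg adjustment over all genes). The SE was the log2 fold change divided by the square root of F. Log2 CPM used a prior count of 2. Alternatives were DESeq2 1.42.0, limma 3.58.1 on the deposited FPKM, other scalings and filters, the replicate block and leaving out each library. The edgeR, DESeq2 and limma tests were each run on simulated counts with known changes. Same-numbered libraries deviated from their group means with correlations of −0.03, −0.01 and 0.02, and the numbers were taken not to pair libraries. No libraries were identical (chi-square per gene 25.6 or more), and each counted as 1 replicate. Promoter sequences are RefSeq's.

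The genes and lists were chosen with earlier results of these data known. Named were the 6 genes, the 3 tested genes of smallest p per list, and the 3 most alike genes per tested gene; others (Serpinh1, Anxa2) were named after their values were seen. Of the genes so listed, 1 is not reported here and is in no list count.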

Additional observations from a re-analysis of the deposited data

How the results depend on the processing

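For Plau, Plat, Plaur and Serpinf1, 59 of 60 alternative values kept their direction, and none of the 60 passed the threshold (adjusted p 0.144 to 0.998). The exception was Serpinf1 without replicate 2 with supernatant (log2 fold change 0.0165), and the cause was not tested. Leaving out each library moved the log2 fold change of Plau over 0.0009 to 0.133, of Plat over −0.49 to −0.09 of Plaur over 0.12 to 0.38 and of Serpinf1 over −0.1643 to 0.0165. Over all genes, edgeR called 3, against 315 with DESeq2 (177 higher, 138 lower), 16 with at least 50 counts in 3 libraries and 0 without a low-count filter. It called 0 at an adjusted p under 0.01 and 20 under 0.1, and limma without a filter called 0 (2221 with an unadjusted p under 0.05). Leaving out each library gave 0 to 199 calls, the 199 without replicate 1 with supernatant. The fit with the replicate number as a block called 0 genes (1330 with an unadjusted p under 0.05) and none of the 4. The 6 lists had 0 calls under every alternative but DESeq2, with 1 among plasmin and activator substrates. Among likeness values, Spearman's rho moved over 0.1 from Pearson's r for 1 of 12, Smtn to Plat (0.886). Depth does not limit the 4 tested genes, each with at least 1684 counts per library. Serpinb2 and Serpine2 had too few counts to be tested at this depth, and the reason for their low counts was not tested.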
